A study of Mus musculus with 9 samples.

Results

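The interleukin 17, 20 and 22 cytokine axis was followed here through 10 genes: the cytokine genes Il17a, Il17f, Il22, Il23a, Il19, Il20 and Il24, the receptor chain genes Il20rb and Il17ra, and the chemokine gene Ccl20. A gene was taken from the array where a transcript cluster, the array's unit for 1 transcribed region, carried exactly 1 gene symbol, and each of the 10 had 1 such cluster. They are 10 of 30142 genes measured in this way. The study asked how skin responds in 2 mouse models of allergic contact dermatitis, a T cell mediated eczema caused by small reactive molecules called haptens. Total RNA of whole neck skin was hybridised to 9 Affymetrix arrays, 3 per group, and the labels call the 3 samples of a group biological replicates. All mice were male C57BL/6, an inbred strain, aged 6 to 8 weeks. The urushiol group was sensitised with urushiol at 2.0%, an oily allergen made by poison ivy, on shaved abdominal skin. It was challenged from 5 days later on the shaved nape with 0.5% urushiol in 40 µl acetone, 5 times in all, the last time on day 8. The oxazolone group had the same schedule and doses with oxazolone, a synthetic hapten. The control group was healthy skin, and the sources used here do not say if it received shaving or acetone. Skin was taken 4 hours after the last challenge.

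IL-23, whose p19 subunit is encoded by Il23a, sustains lymphocytes that secrete IL-17A, IL-17F and IL-22. IL-17A and IL-17F act through IL-17RA and IL-17RC, and IL-22 through IL-22RA1 and IL-10RB, so that keratinocytes make neutrophil-attracting chemokines, antimicrobial peptides and CCL20, the ligand of the type 17 lymphocyte receptor CCR6. IL-19, IL-20 and IL-24 form the IL-20 subfamily, made largely by keratinocytes and myeloid cells, and they act on keratinocytes through receptors that share the chain IL-20RB.

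Values are log2 expression values as the authors deposited them, and the median of all transcript clusters lay between 5.53 and 5.64 on each array. Values of different genes come from different probes and were not set against each other. All 8 keratinocyte marker genes lay above the array median on all 9 arrays, as the label of skin implies. Of the controls, array 3 was unlike arrays 1 and 2, with which it correlated at 0.979 and 0.978 (0.995 between arrays 1 and 2). The first principal component, with 74.0% of the variance, placed the challenged arrays at 29.5 to 58.5, control array 3 at -46.8, and control arrays 1 and 2 at -118 and -122. The members' results against control are therefore also given without it. Muscle markers differed strongly. The mean of 8 skeletal muscle genes ranged from 11.0 to 12.3 in urushiol skin and 7.20 to 9.19 in oxazolone skin, against 15.8 to 17.8 in control skin. In the limma test described below 8 of 8 were lower after each allergen, against 6.43% of all genes after urushiol and 6.92% after oxazolone. The mean of 8 hair follicle genes ranged from 12.0 to 13.0 in urushiol skin and 12.8 to 15.8 in oxazolone skin, against 6.10 to 13.7 in control skin. The highest control value, on control array 3, lay above every urushiol array. In that test 0 of 8 hair follicle genes were called after either allergen, against 16.4% of all genes after urushiol and 16.6% after oxazolone. The part of either tissue in the results below was not tested. In whole skin, fewer cells of a type and less RNA per cell cannot be told apart.

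Il24, Il19 and Il20 rose in urushiol skin, and Il24, Il19 and Il17ra rose in oxazolone skin, while Il20rb fell in both. Thus 3 of 10 genes rose after urushiol, against 9.96% of all genes, and 1 fell, against 6.43%. After oxazolone 3 of 10 rose, against 9.63% of all genes, and 1 fell, against 6.92%. Since the members were chosen with earlier results of these data known, these contrasts are not an independent test. A gene is said to have risen or fallen where limma's two-sided test, adjusted over all genes, gave p under 0.05. Il17a, Il17f and Il22, the genes that name the axis, were not called in any comparison, and nor were Il23a and Ccl20. No member was called between urushiol and oxazolone skin. The median difference over the 10 genes was 0.53 log2 units after urushiol and 0.55 after oxazolone, against 0.04 and 0.06 over all genes.

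**Figure D1:**
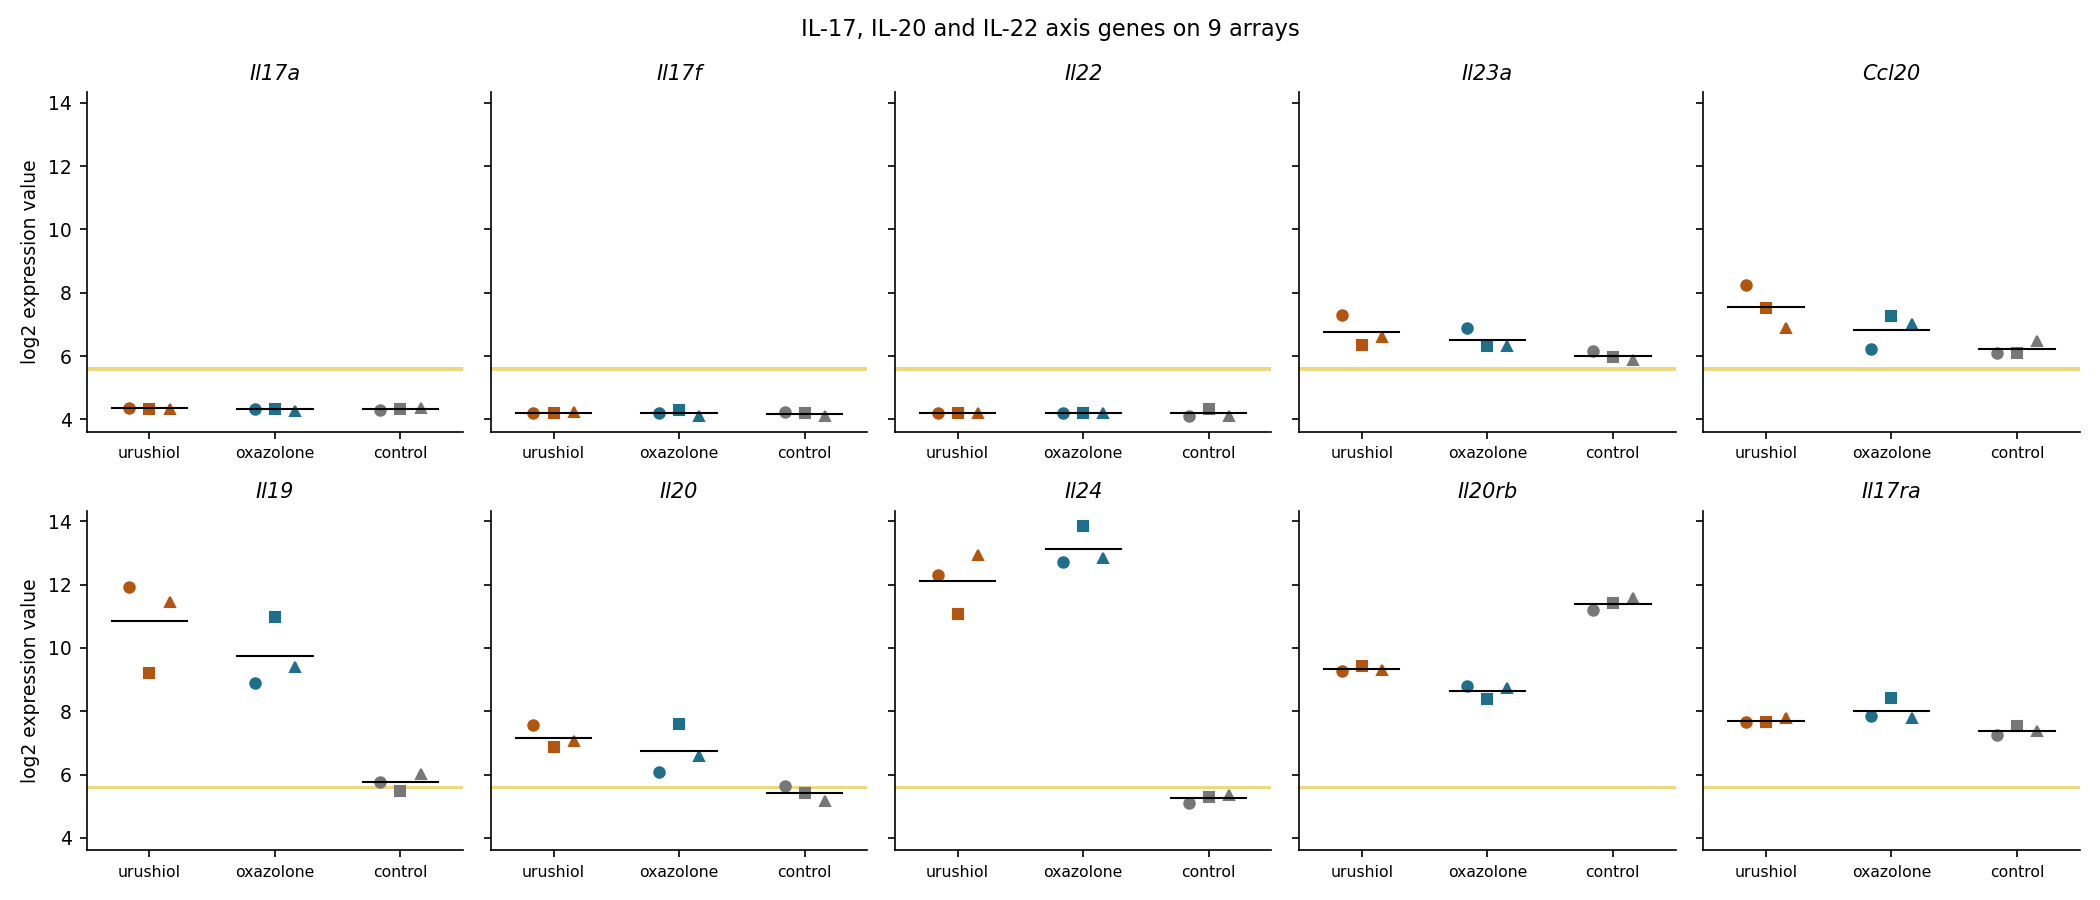
Log2 expression values (vertical axis) of the 10 genes on 9 arrays, with circles, squares and triangles for replicates 1, 2 and 3, a bar at each group mean, and a yellow band at the range of the array medians. Il17a, Il17f and Il22 lie under the band on all 9 arrays, Il24 and Il19 lie above it in every challenged sample, and Il20rb is highest in the 3 control samples.

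Il17a and Il17f encode the closely related cytokines that signal as homodimers or as a heterodimer, and their genes are neighbours on chromosome 1. Il17a stood at 4.36, 4.34 and 4.34 on the urushiol arrays and 4.34, 4.34 and 4.26 on the oxazolone arrays, against 4.30, 4.34 and 4.35 on the control arrays. Il17f stood at 4.20, 4.20 and 4.24 on the urushiol arrays and 4.20, 4.29 and 4.11 on the oxazolone arrays, against 4.22, 4.20 and 4.11 on the control arrays. All 18 values lay below the array median, the groups overlapped, and the whole range was 0.10 log2 units for Il17a and 0.18 for Il17f. The value 4.34 recurred for Il17a on 5 arrays and 4.20 for Il17f on 4. Il17a differed by 0.02 ± 0.04 (SE) after urushiol (limma adjusted p = 0.816) and by -0.02 ± 0.04 after oxazolone (adjusted p = 0.786). The same differences for Il17f were 0.04 ± 0.06 (adjusted p = 0.712) and 0.02 ± 0.06 (adjusted p = 0.801). The files hold no detection calls, so whether these probes reported any transcript is unknown, and a small change in a dim gene would not be seen.

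Il22 encodes the cytokine that drives epidermal thickening. Its values were 4.21, 4.19 and 4.19 on the urushiol arrays and 4.19 on each of the 3 oxazolone arrays, against 4.10, 4.34 and 4.12 on the control arrays. All lay below the array median, the control arrays held both the lowest and the highest value, and 4.19 recurred on 5 arrays. Il22 differed by 0.01 ± 0.06 after urushiol (adjusted p = 0.956) and by 0.00 ± 0.06 after oxazolone (adjusted p = 0.985). Il22 lies on chromosome 10 beside Iltifb, a near-identical copy, so its signal is uncertain. Iltifb itself stood at 4.95, 4.83 and 4.82 on the urushiol arrays and 4.96, 4.80 and 4.70 on the oxazolone arrays, against 4.74, 4.82 and 4.61 on the control arrays.

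Markers of the cells that make these cytokines were read beside them. The mean of 5 genes marking dermal gamma delta T cells, a main source of IL-17A in mouse skin, ranged from 5.49 to 5.60 in urushiol skin and 5.50 to 5.58 in oxazolone skin, against 5.34 to 5.45 in control skin. Only Il23r, the IL-23 receptor gene, passed the test among the 5, against 9.96% of all genes risen after urushiol and 9.63% after oxazolone. Il23r, which is part of that mean, rose by 0.46 ± 0.07 after urushiol (adjusted p = 0.0078) and 0.33 ± 0.07 after oxazolone (adjusted p = 0.025). Leaving out control array 1, control array 2 or any oxazolone array ended the oxazolone call (highest adjusted p over all alternatives 0.0881). The mean of 7 T cell genes ranged from 5.75 to 5.90 in urushiol skin and 5.91 to 6.78 in oxazolone skin, against 6.11 to 6.14 in control skin. Of these 7 genes 1 rose and 2 fell after urushiol, against 9.96% and 6.43% of all genes. After oxazolone 1 rose and 1 fell, against 9.63% and 6.92%. The part of T cell content in the Il17a, Il17f and Il22 values was not tested.

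Il23a stood at 7.31, 6.35 and 6.60 on the urushiol arrays and 6.89, 6.32 and 6.31 on the oxazolone arrays, against 6.15, 5.98 and 5.88 on the control arrays. Every challenged value lay above every control value. The difference was 0.75 ± 0.27 after urushiol (limma adjusted p = 0.101, 95% interval 0.12 to 1.38) and 0.50 ± 0.27 after oxazolone (adjusted p = 0.229), and neither was called. Without control array 3 they were 0.69 (adjusted p = 0.185) and 0.44 (adjusted p = 0.373).

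Il24 had the largest difference of the 10 genes after either allergen, relative to control skin. Its values were 12.31, 11.07 and 12.92 on the urushiol arrays and 12.71, 13.85 and 12.84 on the oxazolone arrays, against 5.10, 5.28 and 5.37 on the control arrays. All 6 challenged values lay far above the 3 control values, which lay below the array median. Il24 rose by 6.85 ± 0.49 after urushiol (adjusted p = 0.000675) and by 7.88 ± 0.49 after oxazolone (adjusted p = 0.000455). No fold is given, since the control values are dim and the deposited scale, which reaches 19.93, may not give RNA ratios. Without control array 3 the differences were 6.91 (adjusted p = 0.000563) and 7.94 (adjusted p = 0.000331).

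Il19, whose product signals through IL-20RA and IL-20RB, stood at 11.93, 9.21 and 11.45 on the urushiol arrays and 8.88, 10.97 and 9.41 on the oxazolone arrays, against 5.77, 5.47 and 6.02 on the control arrays. The allergen groups overlapped each other and neither overlapped the controls. The SD was 1.45 log2 units in urushiol skin and 1.09 in oxazolone skin, against 0.28 in control skin (n = 3 each). Il19 rose by 5.11 ± 0.79 after urushiol (adjusted p = 0.00799) and by 4.00 ± 0.79 after oxazolone (adjusted p = 0.0185). Without control array 3 the differences were 5.24 (adjusted p = 0.00937) and 4.13 (adjusted p = 0.0222). The oxazolone call was lost on leaving out control array 1 (adjusted p = 0.062), control array 2 (0.0667), oxazolone array 2 (0.0508) or oxazolone array 3 (0.0519).

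Il20, which can signal through IL-20RB paired with either IL-20RA or IL-22RA1, moved less. Its values were 7.56, 6.88 and 7.06 on the urushiol arrays and 6.07, 7.60 and 6.59 on the oxazolone arrays, against 5.65, 5.43 and 5.16 on the control arrays. Every challenged value lay above every control value. Il20 rose by 1.75 ± 0.38 after urushiol (adjusted p = 0.0252). After oxazolone the difference was 1.34 ± 0.38 (adjusted p = 0.0549), which was not called. Without control array 3 these were 1.63 (adjusted p = 0.0431) and 1.21 (adjusted p = 0.101). The urushiol call was lost without control array 1 (adjusted p = 0.0604), control array 2 (0.0778), urushiol array 1 (0.0877) or urushiol array 3 (0.0684), and the oxazolone difference was called without oxazolone array 1 (0.0417).

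Il24, Il20 and Il19 are successive protein-coding genes on chromosome 1, followed by Il10, in the RefSeq gene table. RefSeq promoter windows (mouse assembly GRCm38.p6, 250 bases before to 50 after the gene start) were held for 7 of the 10 genes. No window was held for Il24, Il23a or Il17ra. The windows of Il19 and its neighbour Il20, and that of Ccl20, are shown because Il19 and Ccl20 hold motifs of transcription factors known to act in this axis and Il20 does not. Capitals mark a match, 5′ to 3′, to the STAT motif TTCNNNGAA or to the kappaB consensus, each searched on both strands.
Il19 (chr1:130940066-130940365, minus strand): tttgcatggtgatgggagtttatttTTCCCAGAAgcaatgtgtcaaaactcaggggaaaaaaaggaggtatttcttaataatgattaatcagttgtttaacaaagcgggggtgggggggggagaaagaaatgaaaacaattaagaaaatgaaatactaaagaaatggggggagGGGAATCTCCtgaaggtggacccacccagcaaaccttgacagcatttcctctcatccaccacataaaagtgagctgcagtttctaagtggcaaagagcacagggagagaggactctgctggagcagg
Il20 (chr1:130911247-130911546, minus strand): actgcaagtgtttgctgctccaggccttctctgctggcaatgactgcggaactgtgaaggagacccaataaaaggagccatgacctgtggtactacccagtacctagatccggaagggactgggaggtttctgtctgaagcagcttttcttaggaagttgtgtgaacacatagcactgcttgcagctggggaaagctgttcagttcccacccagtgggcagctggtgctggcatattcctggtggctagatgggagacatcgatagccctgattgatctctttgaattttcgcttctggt
Ccl20 (chr1:83116516-83116815, plus strand): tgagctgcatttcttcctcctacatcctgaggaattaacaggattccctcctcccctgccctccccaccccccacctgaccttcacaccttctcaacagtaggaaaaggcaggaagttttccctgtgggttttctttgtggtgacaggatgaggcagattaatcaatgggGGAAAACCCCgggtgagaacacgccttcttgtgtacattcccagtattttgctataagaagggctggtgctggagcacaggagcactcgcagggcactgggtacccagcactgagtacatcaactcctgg
In Il19 the STAT match began at position -225 and the kappaB match at -77 relative to the gene start, and in Ccl20 the kappaB match began at -80. The Il20 window held no match to these motifs or to the AP-1 motif TGANTCA. Over the 7 genes, the AP-1 motif was found in 1 (Il17a), the STAT motif in 1 and the kappaB consensus in 2. Among 32851 promoter windows of the same length the shares were 7.81%, 8.3% and 8.46%. The matches did not overlap each other, and a match of letters is not a measured binding site.

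Il20rb encodes the chain shared by all receptors of the IL-20 subfamily. Its values were 9.26, 9.42 and 9.31 on the urushiol arrays and 8.81, 8.39 and 8.72 on the oxazolone arrays, against 11.19, 11.43 and 11.58 on the control arrays. No group overlapped another. Il20rb fell by 2.07 ± 0.14 log2 units after urushiol (adjusted p = 0.000521) and fell by 2.76 ± 0.14 after oxazolone (adjusted p = 0.000196), which are 4.2-fold and 6.77-fold on a plain log2 scale. Without control array 3 the differences were -1.98 (adjusted p = 0.000286) and -2.67 (adjusted p = 9.17e-05). The mean of 8 keratinocyte markers, cells in which Il20rb is known to be expressed, ranged from 16.4 to 16.6 in urushiol skin and 16.1 to 16.5 in oxazolone skin, against 15.6 to 16.3 in control skin. Of these 8 markers 3 rose and 1 fell after each allergen. Of all genes 9.96% rose and 6.43% fell after urushiol, and 9.63% rose and 6.92% fell after oxazolone. The values of the markers reach past 16, where the scale is not settled. The part of keratinocyte content in the Il20rb values was not tested.

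The other chains and signalling genes of the IL-20 subfamily and IL-22 gave 8 measured genes. After urushiol 1 rose and 3 fell, with 5 at an unadjusted p under 0.05, and after oxazolone 2 rose and 3 fell, with 7 at an unadjusted p under 0.05. Over all genes, 9.96% rose and 6.43% fell after urushiol, and 9.63% rose and 6.92% fell after oxazolone. An unadjusted p under 0.05 was found for 32.2% of all genes after urushiol and 34.1% after oxazolone. Il20ra, the partner chain of IL-20RB, stood at 7.57, 6.33 and 7.57 on the urushiol arrays and 7.57, 6.82 and 5.79 on the oxazolone arrays, against 10.75, 10.80 and 10.64 on the control arrays. The value 7.57 recurred on urushiol arrays 1 and 3 and oxazolone array 1. All 6 challenged values lay below the controls, and Il20ra fell by 3.57 ± 0.50 after urushiol (adjusted p = 0.00552) and fell by 4.00 ± 0.50 after oxazolone (adjusted p = 0.00396). Thus the genes for both chains of the receptor used by all 3 IL-20 subfamily cytokines in mouse fell in both groups. The call for Il20ra held on leaving out any 1 array, control array 3 included (adjusted p = 0.00667 after urushiol and 0.00434 after oxazolone).

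Il22ra2, which encodes a soluble receptor that binds and blocks IL-22, stood at 4.59, 4.48 and 4.60 on the urushiol arrays and 4.78, 4.57 and 4.39 on the oxazolone arrays, against 6.03, 7.39 and 6.23 on the control arrays. Challenged values lay below the array median and control values above it. Il22ra2 fell by 1.99 ± 0.33 after urushiol (adjusted p = 0.01) and fell by 1.97 ± 0.33 after oxazolone (adjusted p = 0.011). Il22ra1, the signalling chain of the IL-22 receptor, was not called, with differences of -0.24 ± 0.24 after urushiol (adjusted p = 0.551) and -0.67 ± 0.24 after oxazolone (adjusted p = 0.096). The oxazolone difference was called lower without oxazolone array 3 (-0.93, adjusted p = 0.0302) and after quantile renormalisation (-0.92, adjusted p = 0.037). Il10rb, its partner chain, rose by 0.62 ± 0.14 after urushiol (adjusted p = 0.0277), and differed by 0.46 ± 0.14 after oxazolone (adjusted p = 0.0657). That urushiol call was lost without control array 1 (adjusted p = 0.0864) or without any urushiol array (0.0686 to 0.0906), which left no risen gene in the list.

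The receptor-bound kinase gene Tyk2 fell by 0.39 ± 0.09 after urushiol (adjusted p = 0.0335) and fell by 0.34 ± 0.09 after oxazolone (adjusted p = 0.0485), and both calls were fragile. The urushiol call was lost on leaving out any 1 array other than control array 1, and the oxazolone call any other than urushiol array 1 (0.0592 and 0.087 without control array 3). The kinase gene Jak1 was not called (0.03 ± 0.19 and -0.24 ± 0.19). Stat3, the transcription factor that carries IL-22 signals, rose by 0.83 ± 0.16 after oxazolone (adjusted p = 0.0188), and differed by 0.50 ± 0.16 after urushiol (adjusted p = 0.0827). Socs3, a feedback inhibitor induced by STAT3, rose by 0.86 ± 0.17 after oxazolone (adjusted p = 0.0187), and differed by 0.33 ± 0.17 after urushiol (adjusted p = 0.235, or 0.0466 and called without control array 2). The Socs3 call was lost without oxazolone array 2 (adjusted p = 0.0583) or oxazolone array 3 (0.0645), and the omission of either control array 1 or oxazolone array 3 ended the Stat3 call (highest adjusted p over all alternatives 0.11). Neither gene was called between the allergens.

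**Figure D2:**
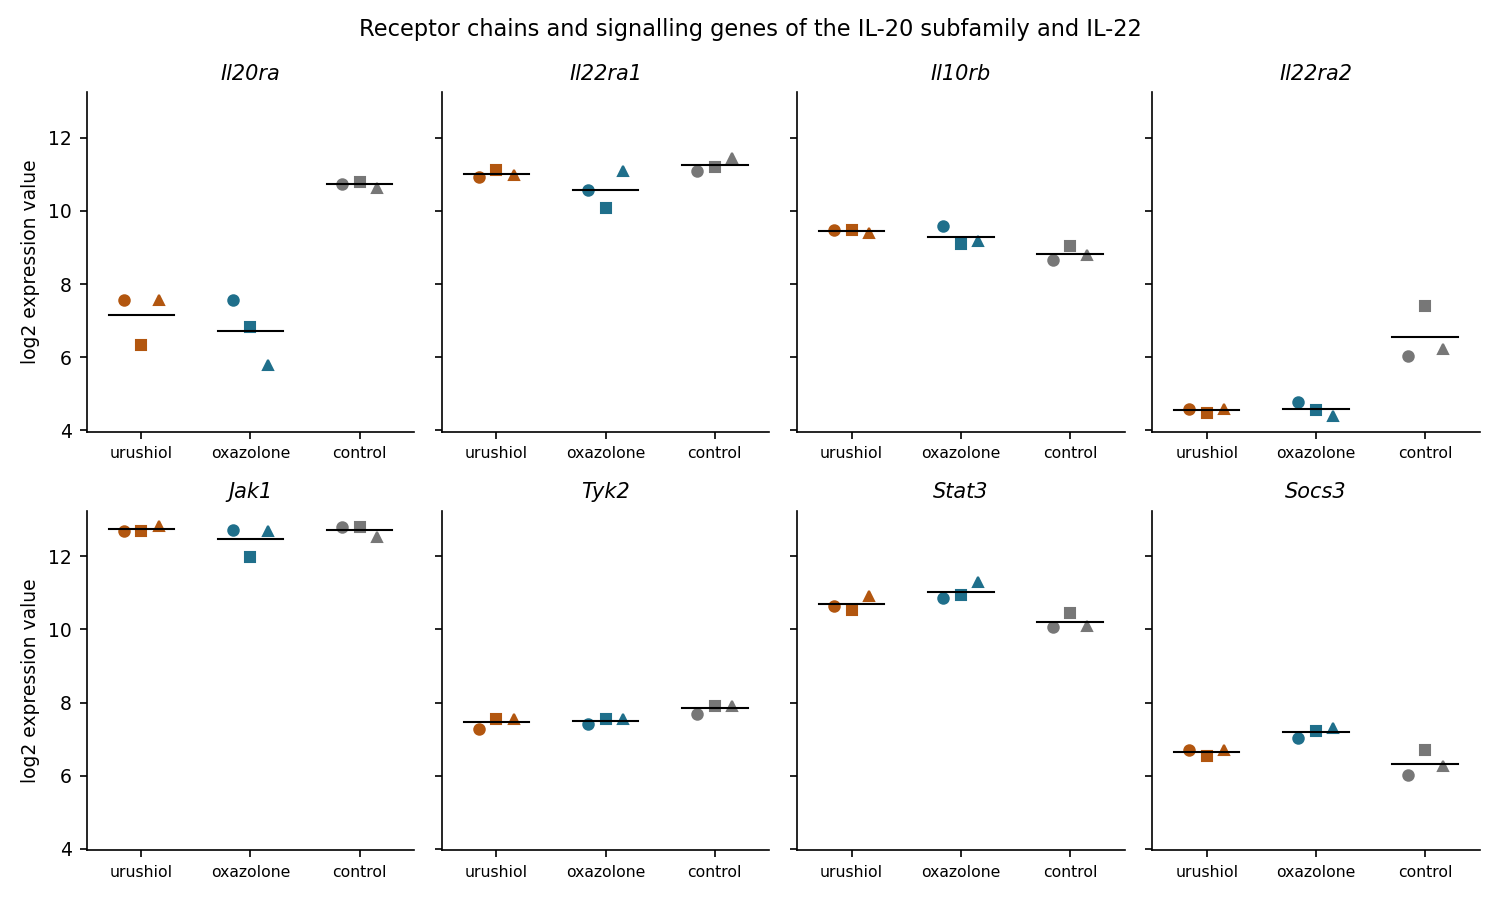
Log2 expression values (vertical axis) of 8 receptor and signalling genes of the IL-20 subfamily and IL-22 on 9 arrays, with circles, squares and triangles for replicates 1, 2 and 3 and a bar at each group mean. Il20ra lies between 5.79 and 7.57 on the 6 challenged arrays and between 10.64 and 10.80 on the control arrays, and Il22ra2 is lower on all challenged arrays.

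Il17ra encodes the chain shared by IL-17 family receptors. It stood at 7.67, 7.65 and 7.79 on the urushiol arrays and 7.86, 8.41 and 7.78 on the oxazolone arrays, against 7.26, 7.52 and 7.39 on the control arrays. All challenged values lay above the controls, oxazolone array 2 highest. Il17ra rose by 0.63 ± 0.16 after oxazolone (adjusted p = 0.0424), and differed by 0.31 ± 0.16 after urushiol (adjusted p = 0.241, or 0.328 without control array 3). The oxazolone call was lost on leaving out any 1 of the 9 arrays other than oxazolone array 2, with adjusted p between 0.0501 and 0.125, and was 0.0635 without control array 3.

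Of the 8 other IL-17 ligand and receptor genes, limma called 0 after either allergen, with 3 at an unadjusted p under 0.05 after urushiol, against 32.2% of all genes, and 2 after oxazolone, against 34.1%. The ligand genes differed little. Il17b gave 0.03 ± 0.07 after urushiol and 0.06 ± 0.07 after oxazolone, Il17d gave -0.06 ± 0.10 after each allergen, and Il25 gave 0.06 ± 0.04 after urushiol and 0.05 ± 0.04 after oxazolone. Il17c, an epithelial IL-17 family cytokine, stood above all controls in every challenged sample, with 0.27 ± 0.09 after urushiol (adjusted p = 0.0828) and 0.22 ± 0.09 after oxazolone (adjusted p = 0.135). Its values ran from 5.52 to 5.81 in urushiol skin and from 5.52 to 5.66 in oxazolone skin, against 5.27 to 5.45 in control skin. Il17rc, the partner of IL-17RA, differed by 0.74 ± 0.28 after urushiol (adjusted p = 0.116) and 0.40 ± 0.28 after oxazolone (adjusted p = 0.356). For Il17re, the IL-17C receptor chain, the differences were -0.33 ± 0.14 (adjusted p = 0.154) and -0.32 ± 0.14 (adjusted p = 0.156). Il17rb, which binds IL-25, gave -0.11 ± 0.07 after urushiol and -0.22 ± 0.07 after oxazolone, and Il17rd gave -0.09 ± 0.06 and 0.00 ± 0.06. Il17rb was called lower after oxazolone with quantile renormalisation (adjusted p = 0.0319) or median centring (0.0353), and Il17rc higher after urushiol with array weights (0.0287).

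Ccl20 stood at 8.25, 7.51 and 6.90 on the urushiol arrays and 6.23, 7.28 and 7.0 on the oxazolone arrays, against 6.11, 6.11 and 6.49 on the control arrays. The urushiol values all lay above the controls, while oxazolone array 1 lay below control array 3. The difference was 1.32 ± 0.39 after urushiol (adjusted p = 0.0598, or 0.0656 without control array 3) and 0.60 ± 0.39 after oxazolone (adjusted p = 0.318, or 0.308 without that array), and neither was called. Without urushiol array 3 the urushiol difference was called (adjusted p = 0.0483). Ccr6, the gene for the CCL20 receptor, gave 0.07 ± 0.07 after urushiol (adjusted p = 0.559) and 0.13 ± 0.07 after oxazolone (adjusted p = 0.262).

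Across the 10 genes, the 3 arrays of the allergen lay wholly above or below the controls for 7 genes after urushiol, where 32.9% of all genes were so separated, and for 6 after oxazolone, where the share was 32.8%. Il24 and Il20rb kept their calls in both comparisons with control, and Il19 after urushiol, when any 1 array was left out. After oxazolone the number of called members was 4, and it was 2 without control array 1, control array 2 or oxazolone array 3. Of all 30142 genes 4989 were called after oxazolone with all arrays, and 2107, 2127 and 2460 in those fits. The fit without control array 3 called 4 members after urushiol and 3 after oxazolone, and 7655 and 8019 of all genes. With an exact permutation test a single gene in 3 against 3 arrays cannot go below p = 0.1. The calls therefore rest on limma's model, which combines each gene's own spread with a spread pooled over all genes.

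**Figure D3:**
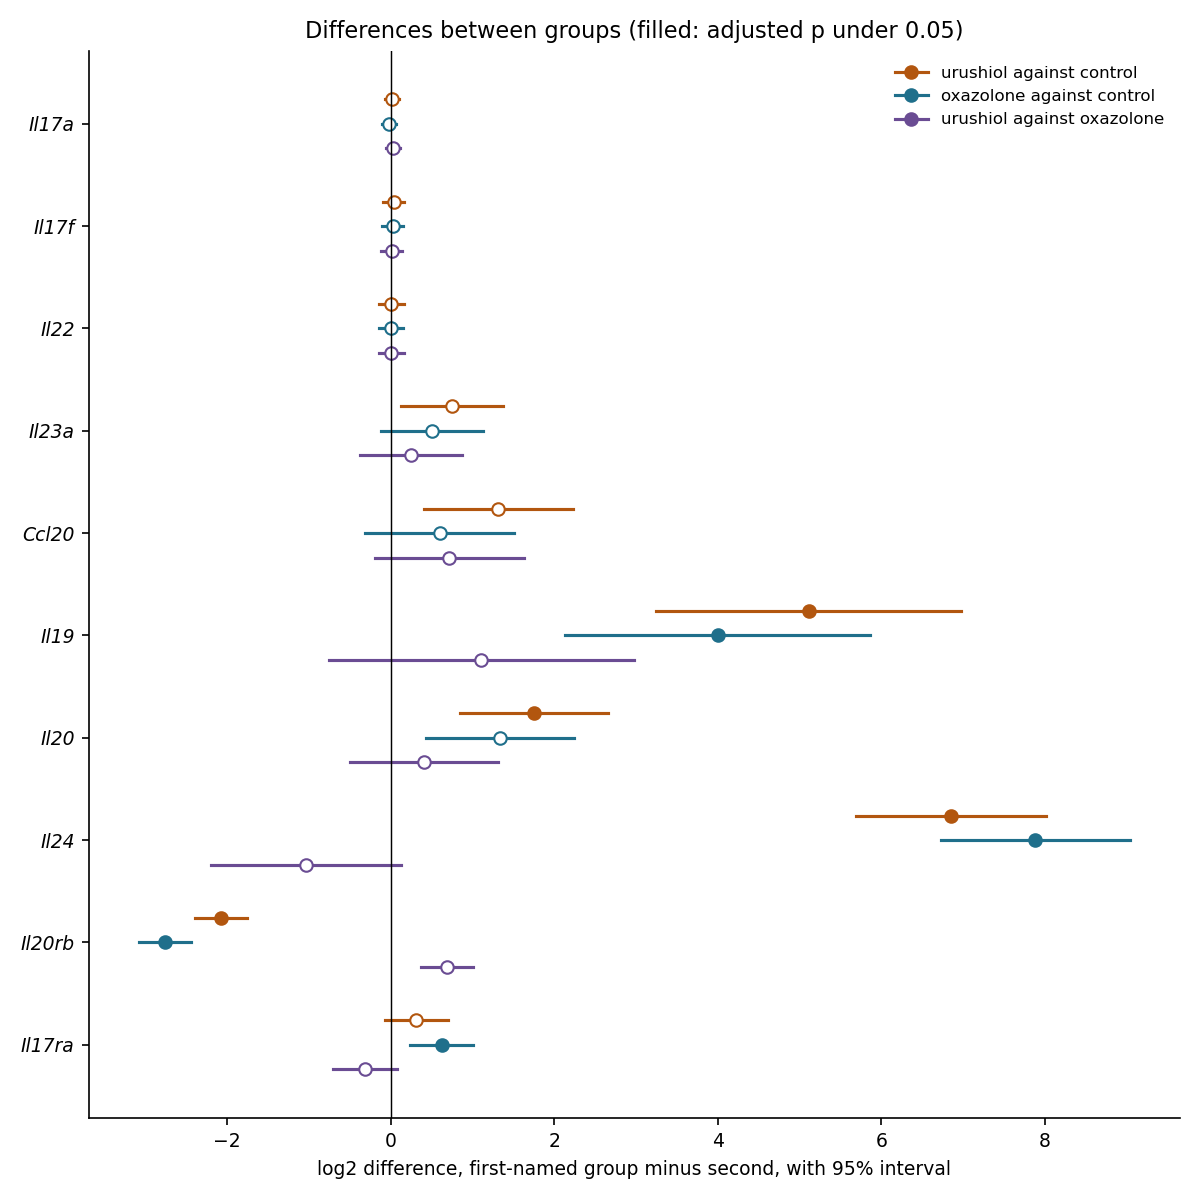
Log2 differences (horizontal axis) of the 10 genes for urushiol against control, oxazolone against control and urushiol against oxazolone, with 95% intervals and filled points where the adjusted p was under 0.05. Il24 and Il19 lie far to the right of 0 in both comparisons with control, Il20rb lies left of 0, and Il17a, Il17f and Il22 lie at 0.

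Urushiol and oxazolone skin were compared gene by gene for the same 10 genes. Limma called 0 of 10, against 0.0166% of all genes (5 genes, or 0 with the replicate number as a block), with 0.00664% higher and 0.00995% lower in urushiol skin. Here 1 member had an unadjusted p under 0.05. That gene was Il20rb, which was 0.69 ± 0.14 higher in urushiol skin (adjusted p = 0.273, 95% interval 0.37 to 1.01). Its groups did not overlap, as was so for 9.74% of all genes. Il24 differed by -1.03 ± 0.49 (adjusted p = 0.919, interval -2.19 to 0.12) and Il19 by 1.11 ± 0.79 (adjusted p = 0.984, interval -0.75 to 2.97). The remaining differences were 0.72 ± 0.39 for Ccl20, 0.41 ± 0.38 for Il20, -0.31 ± 0.16 for Il17ra and 0.25 ± 0.27 for Il23a. These intervals are wide, and a missed threshold does not show that the allergens acted alike.

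The genes that keratinocytes make in response to IL-17 and IL-22 are chemokines, antimicrobial peptides and stress keratins, and 18 of 19 listed were measured. After urushiol 15 rose and 0 fell, against 9.96% and 6.43% of all genes. After oxazolone 14 rose and 0 fell, against 9.63% and 6.92%. The median differences of the 18 were 3.80 and 3.19, against 0.04 and 0.06 over all genes. Since the list was chosen with earlier results of these data known, this contrast with all genes is not an independent test. The largest were S100a8 and S100a9, the subunits of calprotectin, and Krt16, a stress keratin. S100a8 stood at 18.28, 15.74 and 17.64 on the urushiol arrays and 15.57, 15.17 and 15.60 on the oxazolone arrays, against 5.26, 7.21 and 7.45 on the control arrays. It rose by 10.58 ± 0.78 after urushiol (adjusted p = 0.000684) and 8.81 ± 0.78 after oxazolone (adjusted p = 0.00132). S100a9 rose by 9.98 ± 0.61 after urushiol and 8.23 ± 0.61 after oxazolone, and Krt16 by 8.82 ± 0.75 and 8.31 ± 0.75. Values above 16, among them those of Krt16, have no settled scale.

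The neutrophil chemokine gene Cxcl2 rose by 6.82 ± 0.50 after urushiol and 6.80 ± 0.50 after oxazolone, and the IL-36 alpha gene, listed as Il1f6, by 7.90 ± 0.59 and 5.62 ± 0.59. The defensin gene Defb4 rose by 3.12 ± 0.42 after urushiol (adjusted p = 0.00497), with 1.03 ± 0.42 after oxazolone (adjusted p = 0.134), and Defb3 rose by 5.86 ± 0.87 after urushiol (adjusted p = 0.00681), with 2.66 ± 0.87 after oxazolone (adjusted p = 0.0776). Neither defensin gene passed the test between the allergens. Csf3, a granulocyte growth factor, and Reg3g, an antimicrobial lectin, were not called after either allergen. Many of these genes are also made by neutrophils or induced by other cytokines. The mean of 8 neutrophil genes ranged from 7.79 to 8.05 in urushiol skin and 7.44 to 8.27 in oxazolone skin. In control skin it ranged from 5.98 to 6.02. Of these 8 genes 5 rose after each allergen, against 9.96% of all genes after urushiol and 9.63% after oxazolone. Trem1 rose most among them, by 5.57 ± 0.60 and 5.20 ± 0.60, while Ly6g was not called. The part of neutrophils in the S100a8, S100a9 and other target gene values was not tested. Of the 18 target genes 9 rose after oxazolone without control array 1 or without control array 2, and 14 without control array 3. Those fits called 2107, 2127 and 8019 of all 30142 genes in either direction, against 4989 with all arrays.

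The genes of signalling inside the cell from the IL-17 receptor, among them genes that restrain it, moved less. Of 10, limma called 2 higher after urushiol, against 9.96% of all genes, and 0 after oxazolone, against 9.63%. At an unadjusted p under 0.05 there were 3 after urushiol, against 32.2% of all genes, and 5 after oxazolone, against 34.1%. Traf6, a ubiquitin ligase downstream of the receptor adaptor, rose by 1.28 ± 0.21 after urushiol (adjusted p = 0.0106), with 0.71 ± 0.21 after oxazolone (adjusted p = 0.0627). Zc3h12a, an RNase that degrades inflammatory transcripts and restrains the pathway, rose by 1.23 ± 0.26 after urushiol (adjusted p = 0.0228), with 0.29 ± 0.26 after oxazolone. The call for Zc3h12a was lost without urushiol array 1 (adjusted p = 0.0786) or urushiol array 3 (0.0768). After oxazolone 1 gene was called without control array 2, control array 3 or oxazolone array 2. Those fits called 2127, 8019 and 2831 of all 30142 genes in either direction. Traf3ip2, which encodes the adaptor Act1, gave -0.04 ± 0.05 after urushiol and -0.10 ± 0.05 after oxazolone, and Nfkbiz, a transcriptional mediator of the response, gave 1.11 ± 0.32 (adjusted p = 0.0549) and 0.84 ± 0.32 (adjusted p = 0.109).

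The last list held genes of the IL-23 receptor pathway and of type 17 lymphocytes, of which 11 of 12 were measured. After urushiol 2 rose, against 9.96% of all genes, and 3 fell, against 6.43%. After oxazolone 1 rose, against 9.63% of all genes, and 4 fell, against 6.92%. The risen genes were Il23r after both and Batf, a transcription factor of type 17 T cells, after urushiol (0.34 ± 0.09, adjusted p = 0.0382). The Batf call ended on omitting either of control arrays 1 and 2, oxazolone arrays 2 and 3, or urushiol arrays 1 and 3. After oxazolone 2 genes were called higher without control array 3, where 8019 of all 30142 genes were called in either direction. Zbtb16, which encodes the innate lymphocyte factor PLZF, stood at 7.37, 7.18 and 7.93 on the urushiol arrays and 6.61, 6.52 and 7.34 on the oxazolone arrays, against 9.78, 10.62 and 8.67 on the control arrays. It fell by 2.20 ± 0.49 after urushiol (adjusted p = 0.0275) and fell by 2.87 ± 0.49 after oxazolone (adjusted p = 0.012). The urushiol call was lost without control array 1 (adjusted p = 0.0836), control array 2 (0.0654), or urushiol array 1, 2 or 3 (0.0557 to 0.0903).

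Ahr, the aryl hydrocarbon receptor, fell by 1.10 ± 0.16 after urushiol and fell by 1.25 ± 0.16 after oxazolone, and Irf4 fell by 1.35 ± 0.20 and fell by 1.27 ± 0.20. Rora, an orphan nuclear receptor, fell by 1.11 ± 0.12 after oxazolone (adjusted p = 0.00234), and differed by -0.34 ± 0.12 after urushiol (adjusted p = 0.0918). All 4 of these genes are also expressed outside lymphocytes, in skin or muscle, and the tissue marker lists moved both ways. After urushiol 8 of 8 skeletal muscle, 3 of 5 fibroblast and 4 of 6 adipocyte genes fell, against 6.43% of all genes. After oxazolone 8, 3 and 5 fell, against 6.92%. The median differences of the keratinocyte, hair follicle and melanocyte lists were 0.77, 4.15 and 0.88 after urushiol. After oxazolone they were 0.44, 5.78 and 2.51, with 0 hair follicle and 0 melanocyte genes called after either allergen. The mean of 5 fibroblast genes ranged from 14.4 to 15.6 in urushiol skin and 14.2 to 15.3 in oxazolone skin, against 15.8 to 16.1 in control skin. The part of these tissues in the falls was not tested.

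**Figure D4:**
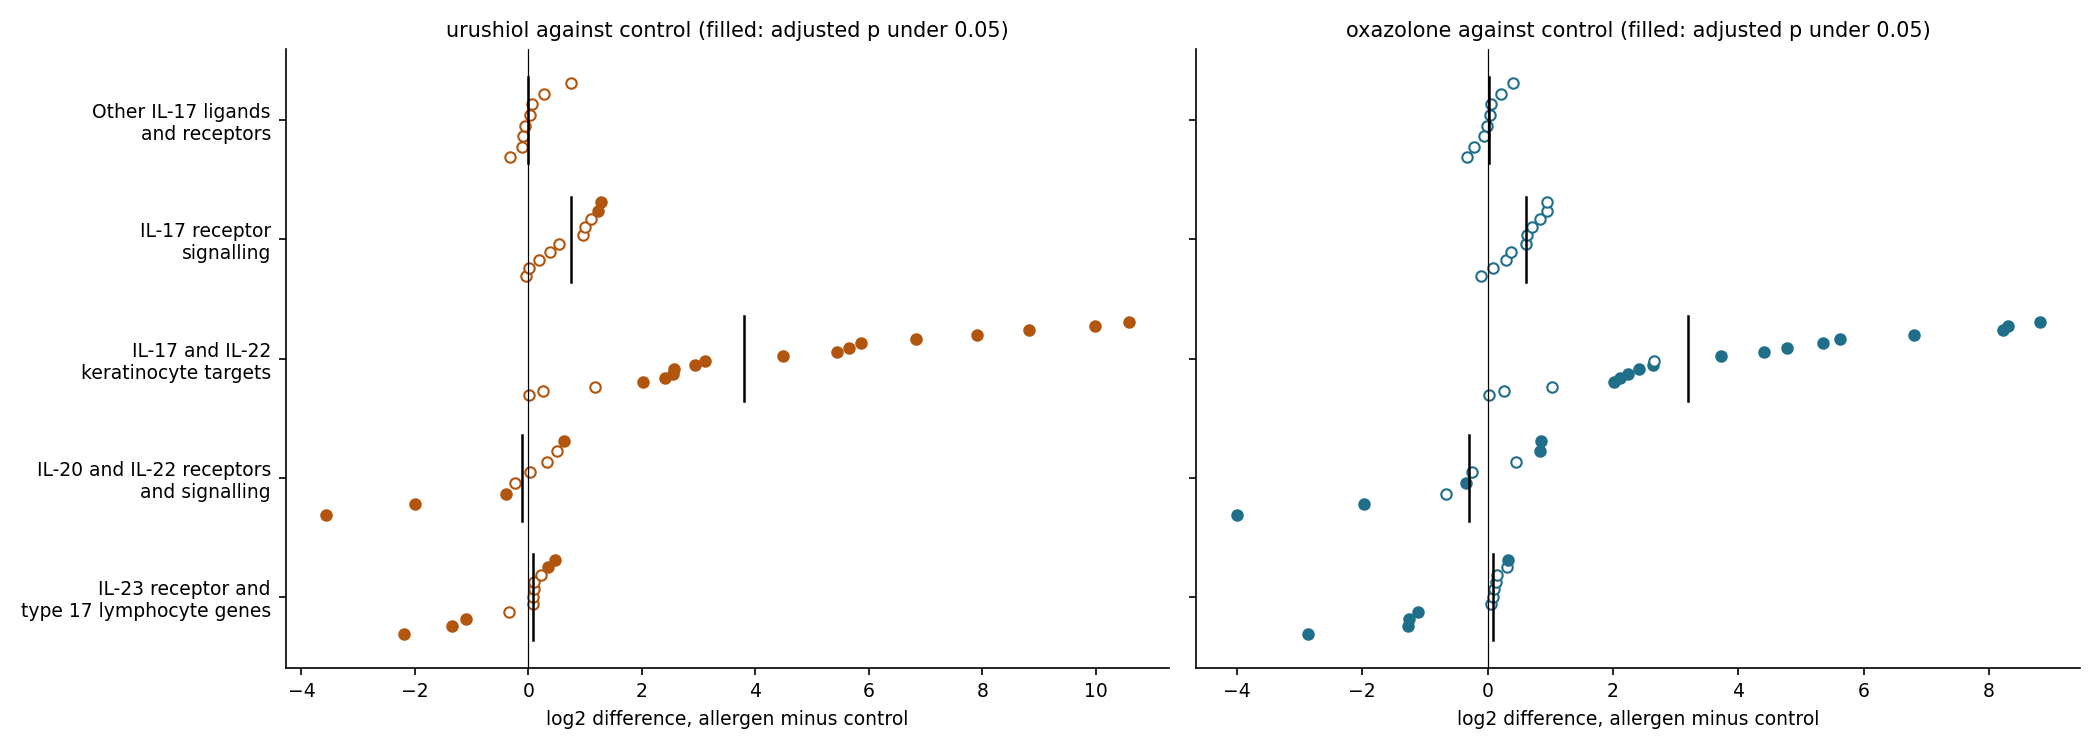
Log2 differences (horizontal axis), allergen minus control, of the measured genes of 5 pathway lists, for urushiol on the left and oxazolone on the right, with 1 point per gene, filled where the adjusted p was under 0.05, and a vertical bar at each list's median. The keratinocyte target genes lie farthest to the right, with 15 of 18 filled for urushiol and 14 of 18 for oxazolone, while the other IL-17 ligands and receptors lie around 0 with 0 of 8 filled in either panel.

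Together the 5 lists had 55 measured genes, of which 20 rose and 6 fell after urushiol and 17 rose and 7 fell after oxazolone. Over all genes 9.96% rose and 6.43% fell after urushiol, and 9.63% rose and 6.92% fell after oxazolone. Limma called 0 of the 55 between the allergens, with 9 at an unadjusted p under 0.05, against 5.88% of all genes. In the fit without control array 3 the keratinocyte targets had 15 risen genes after urushiol and 14 after oxazolone. The IL-20 and IL-22 receptor list there had 1 risen and 2 fallen genes after urushiol and 2 of each after oxazolone. Of all 30142 genes that fit called 7655 after urushiol, against 4942 with all arrays, and 8019 after oxazolone, against 4989.

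Finally, genes outside the members were ranked by how closely their pattern over the 9 arrays followed that of the 3 members that varied most, after each gene was centred on its own mean. Il24 was followed most closely by Il1b, the gene for the inflammatory cytokine IL-1 beta, at a root mean square difference of 0.773 log2 units, and by Acod1, which encodes the enzyme that makes itaconate in activated macrophages, at 0.911. For Il19 they were Pla2g4e, a phospholipase gene, at 0.741, and Dhrs9, a retinol dehydrogenase gene, at 0.764. For Il20rb they were Gdpd2, a glycerophosphodiesterase gene, at 0.208 and Adh1, an alcohol dehydrogenase gene, at 0.291. These 9 arrays include the contrast of challenged with control skin, in which 16.4% and 16.6% of all genes were called, so a like pattern is not particular to a gene.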

How the data were processed

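Total RNA of whole neck skin was measured on 9 Affymetrix arrays, 3 each of urushiol, oxazolone and control skin, grouped by sample titles. Each transcript cluster has 1 log2 value per array, as deposited by the authors. The submitters' processing notes name Affymetrix Expression Console 1.4, RMA and Transcriptome Analysis Console, with no role or order. No genome build is named in the sources used here. Values run from 2.20 to 19.93, although a 16-bit scanner ends at log2 16, so log2 differences may not equal log2 RNA ratios. There are no detection calls, so dimness was judged against the array median. Arrays carry no depth, and their number limits the precision (median SE 0.113 log2 units).

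Of 72688 features, 6732 array controls were left out. Of 65956 clusters, 30604 had 1 symbol in the platform annotation, 2146 several and 33206 none, and 827 symbols were updated through RefSeq gene IDs. Each gene took its cluster with the highest mean, giving 30142 genes. Groups were compared with limma 3.58.1 in R 4.3.3 (lmFit, eBayes, two-sided) in 1 fit of 9 arrays, with Benjamini-Hochberg adjustment over all genes and a threshold of 0.05. The procedure was tested on simulated data. The members and lists were chosen with earlier results of these data known. Named were all 10 members, per list and comparison up to 3 called genes with the largest differences, all genes of lists of 8 or fewer, and for members with an SD of at least 1 log2 unit the 2 genes with the nearest pattern. Il23r, Batf, Rora, Ccr6, Cxcl2, Il1f6, Defb3, Defb4, Csf3, Reg3g, Traf3ip2, Nfkbiz, Trem1, Ly6g and Iltifb were chosen after their values were seen.

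Whether replicate numbers pair arrays was checked by correlating deviations from group means. Same-numbered urushiol and oxazolone arrays correlated at 0.124 to 0.201, above the threshold of 0.1 for pairing, which rests on the data alone. The main fit nevertheless held no replicate block, so the reported differences between the allergens are unpaired. Replicate blocks were used only as alternatives. Controls did not pair (-0.232 to 0.123 with urushiol, -0.163 to 0.337 with oxazolone). Alternatives were quantile renormalisation, median centring, dropping dim genes, averaging the clusters of a gene, testing every cluster, trended and robust variances, array weights, the compared groups alone, replicate blocks and each array left out.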

Additional observations from a re-analysis of the deposited data

How the results depend on the processing

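All values here are from limma. With 3 arrays per group, several calls lay near the threshold. No member and no gene of the 5 pathway lists was called between the allergens under any alternative. With the replicate number as a block and only the compared groups, called members numbered 0 after urushiol (4 in the 9-array fit) and 2 after oxazolone (4), list genes 0 (26) and 4 (24), and all genes 5 (4942) and 708 (4989). A block in all 9 arrays changed 1 member call: Il23a was called after urushiol (adjusted p = 0.0313). Among named list genes that block called Il17c after urushiol (0.0276) and oxazolone (0.0444), and ended the calls of Batf (0.0574), Il10rb (0.0535) and Zbtb16 (0.0594) after urushiol and of Il23r (0.0506) after oxazolone. The compared groups alone gave 2324 and 2198 called genes, and array weights 8135 and 7688. Between the allergens 5 genes were called, against 0 with median centring, trended and robust variances or either block, 2 with the compared groups alone, 35 with the dim filter and 54 with array weights. Leaving out 1 array gave 3 to 4 called members, 19 to 26 list genes and 2189 to 7655 genes after urushiol, 2 to 4, 16 to 25 and 2107 to 8019 after oxazolone, and 0 to 94 genes between the allergens. Of called genes, 60.8% were higher after urushiol and 58.2% after oxazolone, against 49.5% and 42% after quantile renormalisation and 54.1% and 48.9% after median centring.

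The dim filter kept 18017 genes and dropped Il17a, Il17f and Il22. With it Ccl20 after urushiol (adjusted p = 0.0341) and Il20 (0.0317) and Il10rb (0.0438) after oxazolone were called. Signs turned only in uncalled differences. Quantile renormalisation gave -0.022 for Il17a, -0.029 for Il22, -0.020 for Il17b and -0.34 for Jak1 after urushiol, and -0.032 for Il17f, -0.051 for Il22, -0.0070 for Il17b and -0.0096 for Il25 after oxazolone. Median centring gave -0.037 for Il17a, -0.017 for Il17f, -0.043 for Il22, -0.027 for Il17b and -0.027 for Jak1 after urushiol, and -0.043 for Il17f, -0.063 for Il22, -0.010 for Il17b and -0.020 for Il25 after oxazolone. Array weights gave -0.010 for Il17f and 0.013 for Il17rd after oxazolone. On leaving out 1 array, differences after urushiol ran from -0.033 to 0.087 for Il22, from -0.045 to 0.095 for Il17b, from -0.13 to 0.057 for Il17d and from -0.058 to 0.072 for Jak1. After oxazolone they ran from -0.032 to 0.010 for Il17a, from -0.022 to 0.068 for Il17f, from -0.040 to 0.080 for Il22 and from -0.040 to 0.037 for Il17rd. Between the allergens they ran from -0.032 to 0.058 for Il17f and from -0.032 to 0.45 for Il23a. The cause of these changes was not tested.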
